A study of Mus musculus with 16 samples.

Results

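Expression of the Hox cluster genes, which encode the homeodomain transcription factors of the Hoxa, Hoxb, Hoxc and Hoxd clusters, was examined in sorted populations of differentiating mouse ES cells. Members were all genes with a symbol of Hoxa, Hoxb, Hoxc or Hoxd and a number that had a probe set of their own on the array. This gave 33 of the 18193 genes with such a probe set, among them 9 Hoxa, 9 Hoxb, 7 Hoxc and 8 Hoxd genes. The 33 genes had 48 probe sets, and each of the 11 genes with more than 1 was represented by the probe set with the highest mean log2 signal over all arrays. Another 3 probe sets shared by a pair of Hox genes and 5 probe sets of antisense transcripts were not counted as members.

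CCE cells, a mouse ES cell line, were grown as embryoid bodies without leukemia inhibitory factor, fixed, stained and sorted by flow cytometry. The 8 populations were VEGF-R2+ and VEGF-R2- cells at day 2.5, CD41+ and CD41- cells at day 3.5, CD144+ and CD144- cells at day 3.5, and CD144+ and CD144- cells at day 6.5. VEGF-R2 is a receptor of early mesodermal progenitors of blood and endothelium, CD41 marks early hematopoietic progenitors, and CD144 (VE-cadherin) marks endothelial cells. No genetic alteration or drug distinguished the populations, so that the sort and the day were the only labelled differences. Each population had 2 arrays from separately conducted experiments, 16 in all, and the arrays of E9.5 embryos were not analysed here. The negative populations lay outside the positive gate and are mixtures of cell types. In places the study writes the CD41 populations as VEGF-R2+/CD41+ and VEGF-R2-/CD41-. CD41- cells may therefore be negative for VEGF-R2 too and not all of the cells outside the CD41 gate. In such bulk samples, fewer cells expressing a gene and less RNA per cell cannot be told apart.

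Hox proteins bind DNA together with TALE cofactors of the Pbx, Meis and Pknox families and give cells their position along the body axis. Within a cluster, the genes with low paralog numbers are switched on first during gastrulation and the genes with high numbers later, and Polycomb and Trithorax complexes keep them silent or active. In blood formation, Hoxb4 is known for the expansion of hematopoietic stem cells, and genes of the Hoxa cluster act in hematopoietic progenitors and in endothelium.

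Promoters of Hoxb1 and Hoxb4 are shown because the signals of these members of the Hoxb cluster took different courses across the populations, Hoxb1 being highest in VEGF-R2+ cells and Hoxb4 not being called in the 4 comparisons made between positive populations. The RefSeq sequences (build GRCm38.p6, chr11:96365508-96365807 for Hoxb1 and chr11:96318017-96318316 for Hoxb4, both on the + strand) run from 250 bases before to 50 bases after the start of the gene. Capitals mark the motif TGATNNAT, a form of the site bound by Hox and Pbx proteins together, searched on both strands.
Hoxb1: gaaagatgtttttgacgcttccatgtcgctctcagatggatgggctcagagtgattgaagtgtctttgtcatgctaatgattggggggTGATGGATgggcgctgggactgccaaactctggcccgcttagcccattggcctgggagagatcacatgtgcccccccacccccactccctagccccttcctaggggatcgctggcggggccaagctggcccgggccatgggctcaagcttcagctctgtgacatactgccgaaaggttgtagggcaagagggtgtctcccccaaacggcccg
Hoxb4: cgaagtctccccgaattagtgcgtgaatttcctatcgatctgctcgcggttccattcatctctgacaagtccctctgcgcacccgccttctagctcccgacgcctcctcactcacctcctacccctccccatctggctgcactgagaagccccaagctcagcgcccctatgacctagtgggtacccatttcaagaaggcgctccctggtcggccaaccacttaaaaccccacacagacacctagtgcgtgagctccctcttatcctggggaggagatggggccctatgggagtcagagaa
The match in Hoxb1 starts at position -162 from the start of the gene, and these letters are not in the window of Hoxb4. The motif was present in 8.85% of 32851 promoters of the same length. Of 21 promoters that belong to 19 members, 3 held it, those of Hoxa2, Hoxb1 and Hoxd11. A match is a description of the sequence and not evidence of binding.

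Signals are the deposited MAS5 values, scaled on each array to a trimmed mean of 500. Because no detection calls were used, a gene is called above the odorant receptor level in a population where both arrays exceeded the 95th percentile of 43 odorant receptor (Olfr) probe sets on the same array, genes that are normally silent outside sensory neurons. This level lay between 85.0 and 139 on the 8 positive arrays and between 35.0 and 60.4 on the 8 negative arrays, and these ranges did not overlap. The hybridization controls had geometric means of 6481 to 11175 on positive arrays and 2134 to 3022 on negative arrays. The transcripts of all 3 sorting markers, Kdr, Itga2b and Cdh5, were higher in the positive population in each of the 4 sorts, with Cdh5 at 2085 and 1863 in CD144+ cells of day 3.5 against 38.3 and 20.5 in CD144- cells. Kdr remained at 2088 and 2077 in VEGF-R2- cells of day 2.5, against 5475 and 6297 in VEGF-R2+ cells. All 10 endothelial markers rose in both CD144+ populations and in CD41+ cells, and all 7 primitive erythroid markers rose in CD41+ cells, whose summed erythroid signals were 114333 and 95305 against 635 and 479 in CD41- cells. Of 7 cardiac markers 5 were higher and 1 lower in VEGF-R2+ cells, and 3 of the 7 were above the odorant receptor level there. Tnnt2 and Tnni1, both called higher, were above it in neither VEGF-R2+ nor VEGF-R2- cells. Of 7 neuroectoderm markers 3 were higher and 1 lower in CD144+ cells of day 6.5. Of 10 smooth muscle and mesenchyme markers 4 were higher and 1 lower there. Summed erythroid signals at day 6.5 were 38554 and 47979 in CD144+ cells and 42257 and 46851 in CD144- cells, so that erythroid RNA was not confined to CD41+ cells.

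Of the 33 genes, 13 were above the odorant receptor level in at least 1 population and 20 in none. Those 13 comprised 6 of 9 Hoxb genes (Hoxb1 to Hoxb6), 3 of 9 Hoxa genes (Hoxa5, Hoxa9 and Hoxa11), 3 of 8 Hoxd genes (Hoxd1, Hoxd8 and Hoxd9) and 1 of 7 Hoxc genes (Hoxc6). Only Hoxa5 was above the level in all 8 populations, and Hoxb2, Hoxb4 and Hoxb5 joined it in all 4 positive populations. For Hoxa5 this holds for the probe set used, while its other probe set was above the level in no population. The number of genes above the level was 6 in VEGF-R2+ and 7 in VEGF-R2- cells, 7 in CD41+ and 5 in CD41- cells, 7 in CD144+ and 7 in CD144- cells of day 3.5, and 9 in CD144+ and 11 in CD144- cells of day 6.5. Since the level itself was higher on positive arrays, these counts are not comparable between positive and negative populations. The Hoxd1 probe set shows this, because it was above the level in all 4 negative populations and in no positive one, with signals of 16.8 to 107 on positive and 51.5 to 111 on negative arrays.

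**Figure D1:**
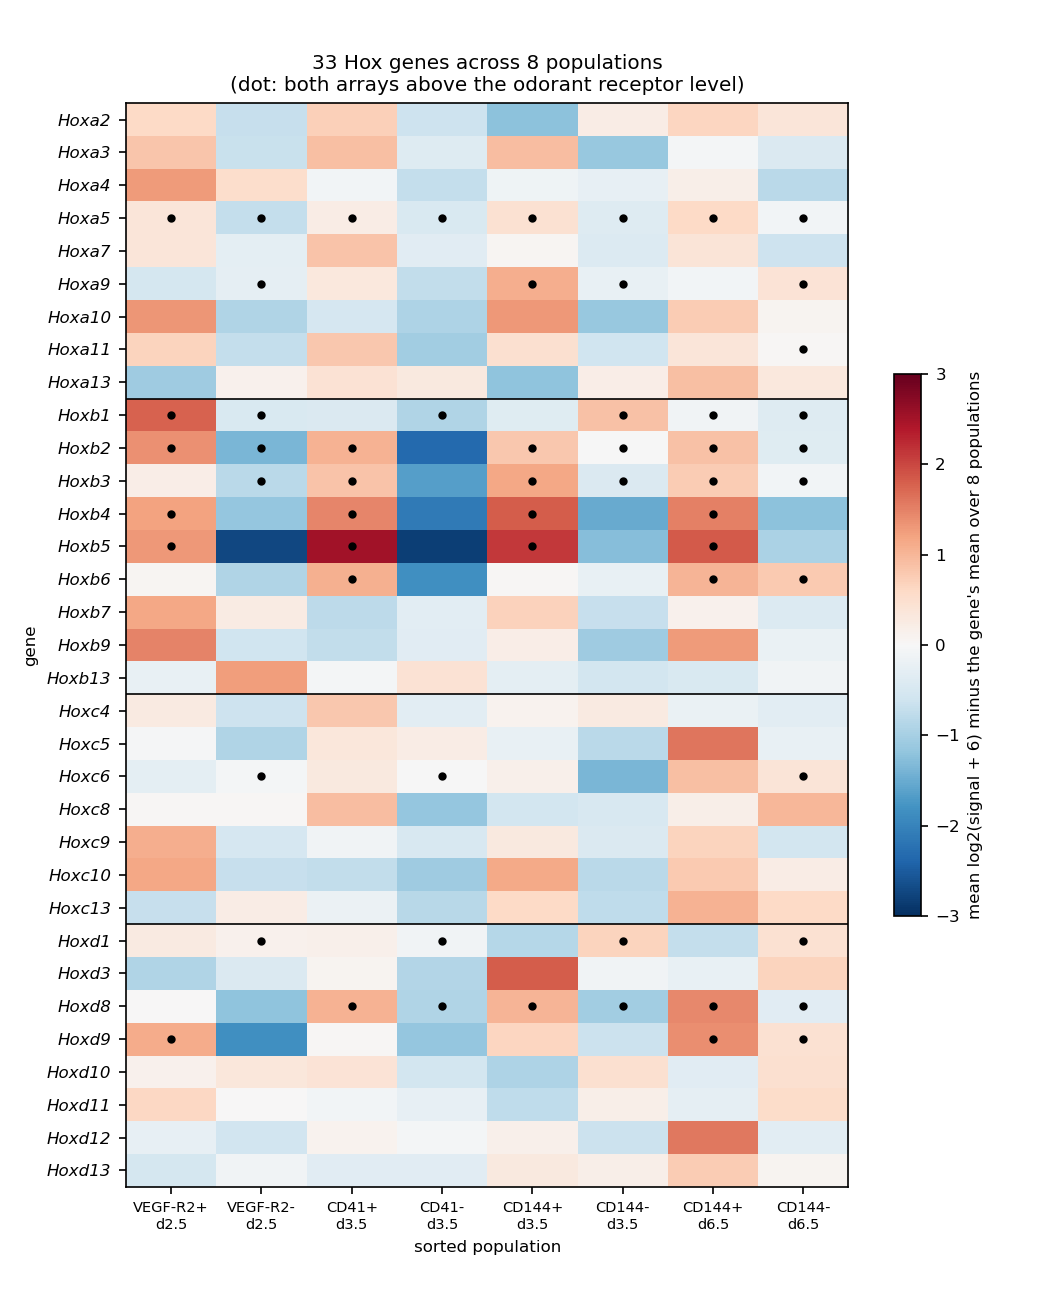
Mean log2(signal + 6) of the 33 Hox genes (rows) in the 8 populations (columns), as the difference from the mean of each gene over the populations, with a dot where both arrays were above the odorant receptor level. Hoxb5 shows a strong contrast, at 2.52 in CD41+ cells and -2.83 in CD41- cells, while Hoxa5 carries a dot in every column for the probe set used, but not for its other probe set, which is not shown.

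The 20 genes that were above the level on both arrays of no population were Hoxa2, Hoxa3, Hoxa4, Hoxa7, Hoxa10, Hoxa13, Hoxb7, Hoxb9, Hoxb13, Hoxc4, Hoxc5, Hoxc8, Hoxc9, Hoxc10, Hoxc13, Hoxd3, Hoxd10, Hoxd11, Hoxd12 and Hoxd13. Their 320 signals had a median of 16.9 and ranged between 0.805 and 173, so that single arrays exceeded the level. By paralog number, the genes of groups 1 to 4 (anterior), 5 to 8 (central) and 9 to 13 (posterior) numbered 10, 9 and 14. In CD41+ cells 3 anterior, 4 central and 0 posterior genes were above the level, and in CD144+ cells of day 6.5 the counts were 4 anterior, 4 central and 1 posterior.

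The comparison of positive with negative cells of a day asked which Hox genes distinguished the sorted progenitors from the negative cells. Hoxb genes led in all 4 sorts. Hoxb2, Hoxb4 and Hoxb5 rose in every one of them, Hoxd8 rose in 3, and another 9 genes rose in 1 or 2. A further 20 genes were called higher in no sort. Hoxb1, lower in CD144+ than in CD144- cells of day 3.5, was the only one called lower in any. Among all probe sets, 11.1%, 13.5%, 9.49% and 9.41% were called higher in the VEGF-R2, CD41, CD144 day 3.5 and CD144 day 6.5 sorts. The share of all probe sets called in several sorts was not computed, so whether such recurrence is unusual was not tested. The odorant receptor probe sets shifted in the same direction as most Hox genes, with medians of 0.76, 0.89, 0.59 and 0.96 on the log2 scale in the VEGF-R2, CD41, CD144 day 3.5 and CD144 day 6.5 sorts, while the medians of all probe sets were 0.08, 0.10, 0.10 and 0.07. Median differences of the 33 Hox genes were 0.93, 0.69, 0.82 and 0.56, and the part of this shift in the results below was not tested. Differences of log2(signal + 6) are therefore given beside the per-array signals, and where the lower population is not above the odorant receptor level, the fold is also given as a lower bound computed against that level. The bound uses the level on the lower population's own arrays, which was lower on negative than on positive arrays. It is a bound on the fold of the mean signals and still contains any shift shared with the odorant receptor probe sets. Every fold given below as "at least" is of this kind. The spread between duplicates is left out of it, so that the 90% interval of the fit can reach smaller folds. For Hoxb4 in the VEGF-R2 sort, with a bound of 4.83-fold, the interval of the log2 difference starts at 1.42.

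**Figure D2:**
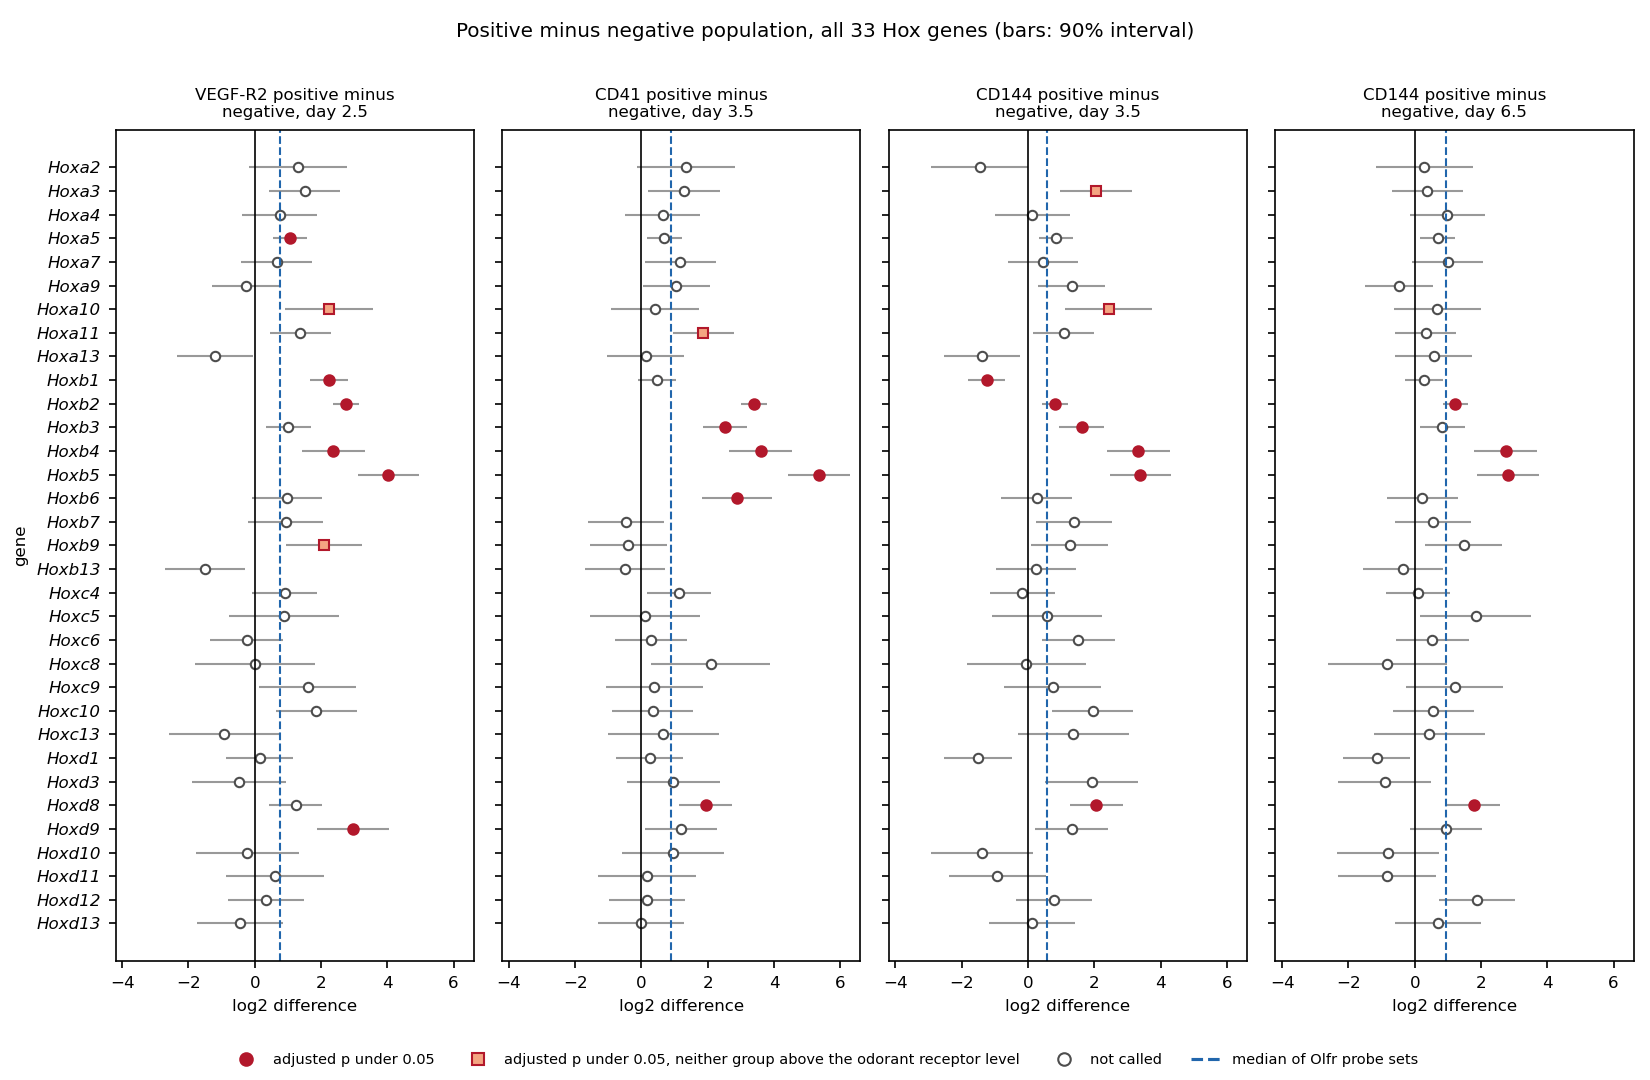
Differences in log2(signal + 6) between positive and negative cells for all 33 Hox genes in the 4 sorts, with 90% intervals. Filled circles mark an adjusted p under 0.05, filled squares the same where neither population was above the odorant receptor level, and the dashed line the median of 43 odorant receptor probe sets; Hoxb2, Hoxb4 and Hoxb5 lie to the right of that line in every panel.

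At day 2.5, 8 of 33 Hox genes were higher in VEGF-R2+ than in VEGF-R2- cells and 0 lower (limma, Benjamini-Hochberg adjustment over 45037 probe sets). Among all probe sets, 11.1% were called higher. Of the 8 genes 5 were Hoxb genes, 2 Hoxa and 1 Hoxd, and 6 of the 8 were above the odorant receptor level in 1 or both populations. Hoxb2, which patterns the hindbrain, had signals of 1012 and 877 in VEGF-R2+ cells against 149 and 122 in VEGF-R2- cells. The groups were well separated, with a log2 difference of 2.75 (standard error 0.22, adjusted p = 3.2e-07 in limma). Hoxb1, an early gene of the cluster that is active in the primitive streak and later in rhombomere 4 of the hindbrain, had signals of 688 and 464 in VEGF-R2+ cells against 101 and 133 in VEGF-R2- cells. Its log2 difference was 2.23 (standard error 0.33, adjusted p = 9.58e-05), and it was above the odorant receptor level in both populations. Markers of early mesoderm moved with this sort, 6 of 7 being higher in VEGF-R2+ cells, with summed signals of 30740 and 27641 in VEGF-R2+ cells against 5397 and 4894 in VEGF-R2- cells. Their part in the Hox differences was not tested.

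Hoxb5, reported in mouse bone marrow as a marker of long-term hematopoietic stem cells, had signals of 210.0 and 123 in VEGF-R2+ cells against 6.47 and 2.35 in VEGF-R2- cells. It was at least 3.24-fold higher, with a fitted log2 difference of 4.03 (standard error 0.53, adjusted p = 3.61e-05). The fitted value exceeds the bound because the negative cells had signals far below the odorant receptor level, where the size of a ratio depends on the offset. Hoxb4 had signals of 214 and 356 in VEGF-R2+ cells against 36.3 and 64.4 in VEGF-R2- cells, at least 4.83-fold higher with a log2 difference of 2.37 (standard error 0.55, adjusted p = 0.00408). Hoxd9, a posterior gene, had signals of 205 and 161 in VEGF-R2+ cells against 5.78 and 43.8 in VEGF-R2- cells, at least 3.64-fold higher with a log2 difference of 2.96 (standard error 0.63, adjusted p = 0.0022). It was the only posterior Hox gene above the odorant receptor level in VEGF-R2+ cells. Leaving out the first VEGF-R2- array ended the calls of Hoxd9 (adjusted p = 0.0552) and Hoxb4 (adjusted p = 0.0578), and leaving out the second VEGF-R2+ array ended that of Hoxb4 (adjusted p = 0.0543). The number of called genes was 4 without the first and 5 without the second VEGF-R2- array.

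The other called genes of this sort were Hoxa5, Hoxa10 and Hoxb9. Hoxa5 had signals of 340.1 and 381 in VEGF-R2+ cells against 210 and 136 in VEGF-R2- cells, a log2 difference of 1.07 beside the 0.76 of the odorant receptor median. Its call was lost without the second VEGF-R2- array (adjusted p = 0.183) and without the second VEGF-R2+ array (adjusted p = 0.0852). Hoxa10, which acts in myeloid progenitors, had signals of 76.9 and 80.8 in VEGF-R2+ cells against 12.4 and 11.5 in VEGF-R2- cells (adjusted p = 0.0394), and Hoxb9 had signals of 66.4 and 31.5 in VEGF-R2+ cells against 6.47 and 6.0 in VEGF-R2- cells (adjusted p = 0.0291). Neither gene was above the odorant receptor level in either population, so no fold is given. The call of Hoxa10 was lost without any 1 of the 4 arrays (adjusted p of 0.103 to 0.155), and that of Hoxb9 without the first VEGF-R2+ array (adjusted p = 0.163) or either VEGF-R2- array (adjusted p = 0.117 and 0.13).

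At day 3.5, 7 Hox genes were higher in CD41+ than in CD41- cells and 0 lower, where 13.5% of all probe sets were called higher. The calls comprised 5 of 9 Hoxb genes, namely Hoxb2 to Hoxb6, and Hoxd8 and Hoxa11. Hoxb5 had signals of 288 and 512 in CD41+ cells against 2.92 and 4.31 in CD41- cells. This was at least 6.74-fold higher, with a fitted log2 difference of 5.35 (standard error 0.53, adjusted p = 9.8e-07), the largest of any Hox gene in the 4 sorts. Hoxb4 had signals of 229 and 484 in CD41+ cells against 9.41 and 44.9 in CD41- cells, at least 5.84-fold higher with a log2 difference of 3.60 (standard error 0.55, adjusted p = 8.27e-05). Hoxb2 had signals of 695 and 816 in CD41+ cells against 60.1 and 73.5 in CD41- cells, at least 10.4-fold higher with a log2 difference of 3.39 (standard error 0.22, adjusted p = 8.55e-09).

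Hoxb3 and Hoxb6 followed the same pattern at lower signals. Hoxb6, a central gene, had 159 and 91.4 in CD41+ cells against 13.9 and 8.6 in CD41- cells, at least 2.19-fold higher with a log2 difference of 2.90 (standard error 0.61, adjusted p = 0.00146). The odorant receptor level itself was 139 and 85.0 on the CD41+ arrays against 60.4 and 44.5 on the CD41- arrays. Hoxb3, a neighbour of Hoxb4, had 193 and 235 in CD41+ cells against 40.9 and 25.1 in CD41- cells, at least 3.79-fold higher with a log2 difference of 2.52 (standard error 0.39, adjusted p = 8.99e-05). Hoxd8 had 187 and 338 in CD41+ cells against 62.3 and 59.7 in CD41- cells, above the odorant receptor level in both, with a log2 difference of 1.94 (standard error 0.46, adjusted p = 0.00383). Without the second CD41+ array the call of Hoxd8 was lost (adjusted p = 0.0507). Hoxa11 had 132 and 87.6 in CD41+ cells against 27.4 and 22.8 in CD41- cells (adjusted p = 0.0124), with neither population above the level, and its call was lost without the first CD41+ array (adjusted p = 0.0816) or the second CD41- array (adjusted p = 0.0795). Hoxb1, in contrast to its neighbours, had 128 and 109 in CD41+ cells against 88.2 and 78.5 in CD41- cells and was not called (log2 difference 0.47, 90% interval -0.10 to 1.05). Markers of undifferentiated cells moved with this sort, with all 8 pluripotency genes lower in CD41+ cells and summed signals of 2970 and 7482 in CD41+ cells against 53935 and 56787 in CD41- cells. Their part in the Hox differences was not tested.

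In the CD144 sort of the same day, 7 Hox genes were higher and 1 was lower in CD144+ cells, where 9.49% of all probe sets were called higher and 10.5% lower. Of the 7 genes 5 were above the odorant receptor level in at least 1 of the populations. Hoxb4 had signals of 397 and 451 in CD144+ cells against 37.8 and 35.9 in CD144- cells, at least 8.76-fold higher with a log2 difference of 3.32 (standard error 0.55, adjusted p = 0.000348). Hoxb5 had 258 and 327 in CD144+ cells against 24.2 and 20.5 in CD144- cells, at least 6.26-fold higher with a log2 difference of 3.39 (standard error 0.53, adjusted p = 0.000242). All 4 signals of each gene kept the groups apart, as did those of Hoxa5, Hoxa7 and Hoxd9, which were not called in this sort. The share of all probe sets that did so was not computed. Hoxd8 had 326 and 187 in CD144+ cells against 53.9 and 55.1 in CD144- cells, a log2 difference of 2.06 (standard error 0.46, adjusted p = 0.00397), and its call was lost without the first CD144+ array (adjusted p = 0.0525). Hoxb3 had 251 and 281 in CD144+ cells against 75.9 and 90.03 in CD144- cells, a log2 difference of 1.61 (standard error 0.39, adjusted p = 0.00654), and its call was lost without the first CD144- array (adjusted p = 0.0668).

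Hoxb1 and Hoxb2 behaved differently in this sort, and both are described here after their values were seen, since they lie outside the 6 largest differences. Hoxb1 was lower in CD144+ cells, with 149.9 and 102 against 320.1 and 287 in CD144- cells. CD144+ cells were not above the odorant receptor level, so that by mean signals Hoxb1 was at least 2.24-fold lower, with a log2 difference of -1.25 (standard error 0.33, adjusted p = 0.0116). This call was lost without the second CD144+ array (adjusted p = 0.106) or without either CD144- array (adjusted p = 0.102 and 0.0569). Hoxb2 was higher, with 695 and 584 in CD144+ cells against 359 and 359 in CD144- cells, a log2 difference of 0.82 (standard error 0.22, adjusted p = 0.0153). Its call was lost without the first CD144+ array (adjusted p = 0.102) or either CD144- array (adjusted p = 0.0896 and 0.0817), and the odorant receptor median was 0.59. The early mesoderm markers moved with Hoxb1 in this sort, 6 of 7 being lower in CD144+ cells, with summed signals of 2827 and 2653 in CD144+ cells against 19108 and 18734 in CD144- cells. Of 8 pluripotency markers 4 were higher and 2 lower in CD144+ cells, with summed signals of 28537 and 32129 against 38112 and 37265 in CD144- cells. The part of these markers in the Hox differences was not tested.

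Hoxa3 and Hoxa10 were also called in the CD144 sort of day 3.5, without being above the odorant receptor level in either population. Hoxa3 had 83.7 and 118 in CD144+ cells against 14.1 and 26.2 in CD144- cells (adjusted p = 0.0261), and Hoxa10 had 72.5 and 81.5 in CD144+ cells against 17.8 and 3.95 in CD144- cells (adjusted p = 0.0316). The call of Hoxa3 was lost without the second CD144+ array (adjusted p = 0.134) or either CD144- array (adjusted p = 0.194 and 0.0572), and that of Hoxa10 without either CD144+ array (adjusted p = 0.0814 and 0.118) or the second CD144- array (adjusted p = 0.251). The count of all called genes in this sort was 5 without the second CD144+ array, 4 without the first and 4 without the second CD144- array.

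At day 6.5, 4 Hox genes were higher in CD144+ than in CD144- cells and 0 lower, where 9.41% of all probe sets were called higher and 10.1% lower. Of the early mesoderm markers 6 of 7 were lower in CD144+ cells, with summed signals of 778 and 632 in CD144+ cells against 6477 and 6737 in CD144- cells. Of the pluripotency markers 1 of 8 was higher and 4 were lower, with summed signals of 13222 and 14156 in CD144+ cells against 29761 and 29676 in CD144- cells. The part of these markers in the Hox differences was not tested. Hoxb5 had signals of 302 and 188 in CD144+ cells against 33.7 and 24.9 in CD144- cells, at least 4.22-fold higher with a log2 difference of 2.81 (standard error 0.53, adjusted p = 0.00117). Hoxb4 had 335 and 355 in CD144+ cells against 30.8 and 67.8 in CD144- cells, at least 5.40-fold higher with a log2 difference of 2.75 (standard error 0.55, adjusted p = 0.00164). Hoxb2 had 646 and 681 in CD144+ cells against 336 and 232 in CD144- cells, a log2 difference of 1.23 (standard error 0.22, adjusted p = 0.000815). Hoxb2 was above the odorant receptor level in both populations, and all 3 genes had no overlap between the groups. Hoxa5, Hoxa7, Hoxb3, Hoxd8 and Hoxd9 had none either, and of these only Hoxd8 was called at day 6.5. The share of all probe sets without overlap was not computed.

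Hoxd8 had 266 and 422 in CD144+ cells of day 6.5 against 121 and 72.0 in CD144- cells, a log2 difference of 1.78 (standard error 0.46, adjusted p = 0.0111). Its call was lost without the second CD144+ array (adjusted p = 0.113) or the second CD144- array (adjusted p = 0.108). Hoxd9 had 186 and 270 in CD144+ cells against 103 and 127 in CD144- cells and was not called (log2 difference 0.94, 90% interval -0.15 to 2.03). At this day CD144- cells too were above the odorant receptor level for 11 Hox genes, among them Hoxa11, Hoxb6, Hoxc6 and Hoxd9.

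**Figure D3:**
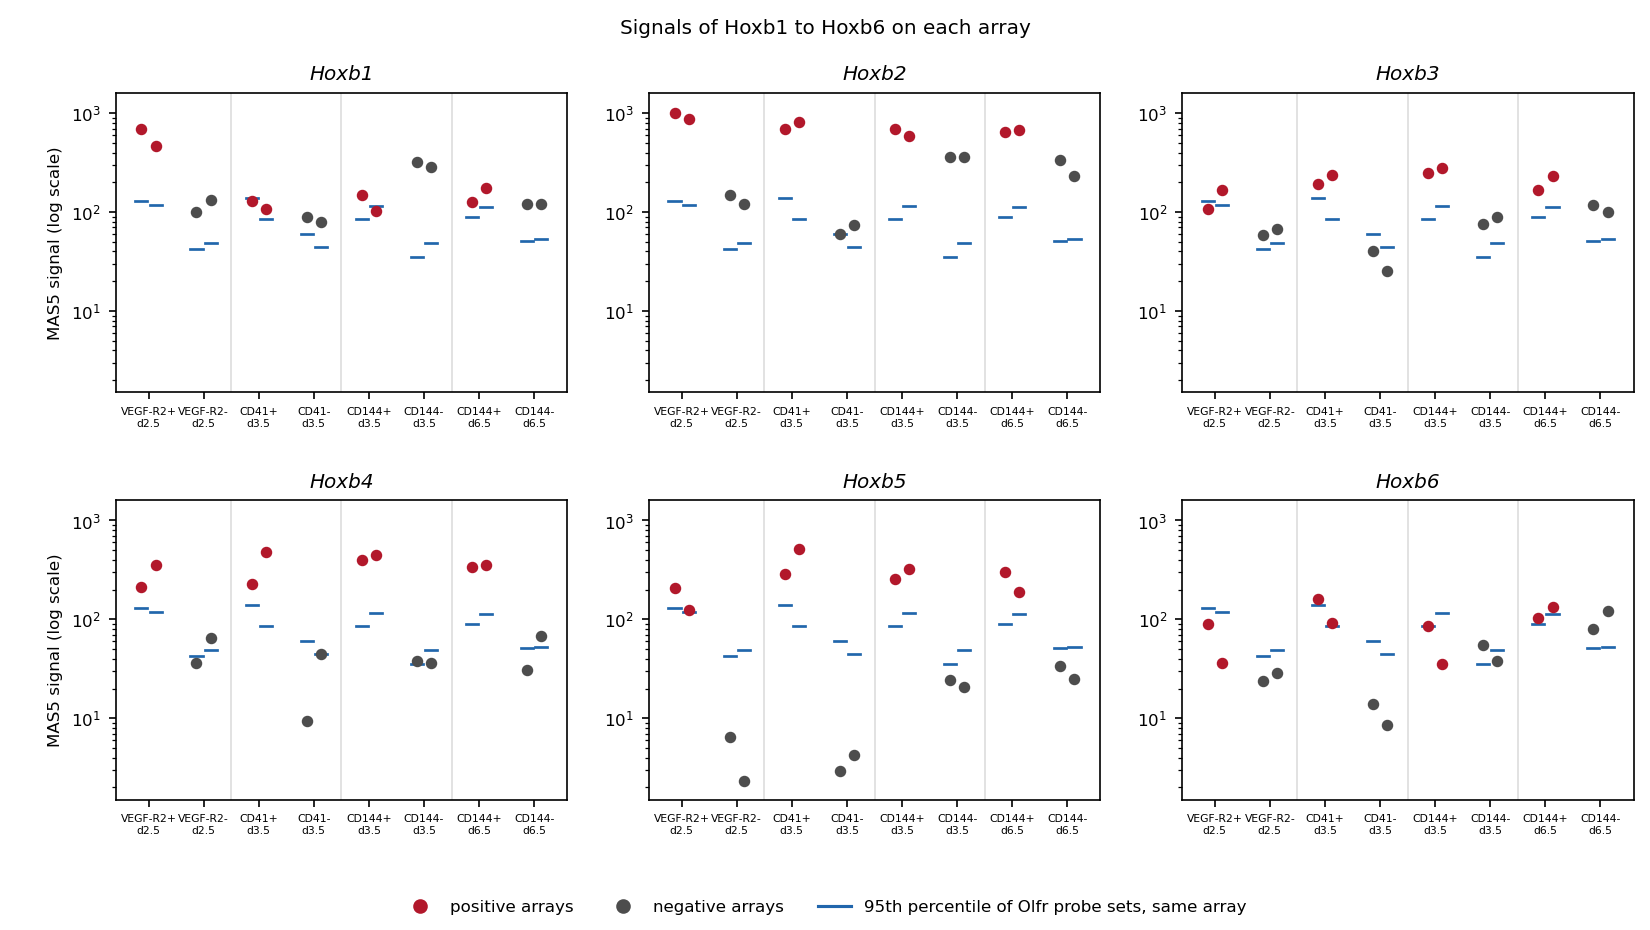
MAS5 signals (log scale) of Hoxb1 to Hoxb6 on each of the 16 arrays, with the 95th percentile of the odorant receptor probe sets of the same array as a bar. Hoxb4 and Hoxb5 are above the bar on all 8 positive arrays, Hoxb1 is highest on the VEGF-R2+ arrays (688 and 464), and Hoxb1 and Hoxb2 are higher in CD144- than in CD41- cells of day 3.5.

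The positive populations were next compared with each other over time, which asks how Hox expression changed as VEGF-R2+ cells gave way to CD41+ or CD144+ cells. The 2 comparisons with day 2.5 share the VEGF-R2+ arrays. In them the sorting marker changed together with the day, so that day and gate cannot be told apart. In CD41+ cells of day 3.5 against VEGF-R2+ cells, 0 Hox genes were higher and 2 lower, where 5.02% of all probe sets were called higher and 4.82% lower. Hoxb1 had 128 and 109 in CD41+ cells against 688 and 464 in VEGF-R2+ cells. It was at least 4.43-fold lower, with a log2 difference of -2.20 (standard error 0.33, adjusted p = 0.000264). In CD144+ cells of day 3.5, where 1 Hox gene was higher and 1 lower against 4.87% and 2.84% of all probe sets, Hoxb1 was at least 4.13-fold lower than in VEGF-R2+ cells, with a log2 difference of -2.14 (standard error 0.33, adjusted p = 0.000614). Its 149.9 and 102 in CD144+ cells did not overlap the VEGF-R2+ values, and both calls held in every alternative tried. The early mesoderm markers moved with Hoxb1: 6 of 7 were lower in CD41+ than in VEGF-R2+ cells, with summed signals of 1486 and 2741 against 30740 and 27641. Of 8 pluripotency markers, 0 were higher and 4 lower in CD41+ than in VEGF-R2+ cells. In CD144+ cells of day 3.5, 6 of them were higher and 1 lower than in VEGF-R2+ cells. The part of these markers in the Hoxb1 differences was not tested.

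Hoxb9 in CD41+ cells (4.80 and 5.28, against 66.4 and 31.5 in VEGF-R2+ cells, adjusted p = 0.0416) and Hoxd3 in CD144+ cells (66.4 and 113, against 7.10 and 8.97 in VEGF-R2+ cells, adjusted p = 0.0484) were the remaining calls. Neither was above the odorant receptor level in any compared population. The call of Hoxb9 was lost on leaving out any 1 of the 4 arrays (adjusted p of 0.0512 to 0.205), and so was that of Hoxd3 (adjusted p of 0.0792 to 0.216). From day 3.5 to 6.5 in CD144+ cells 0 Hox genes were called, with 3.2% of all probe sets called higher and 2.64% lower.

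Hoxb2, Hoxb4 and Hoxb5 were not called in these 3 comparisons. For Hoxb4 the log2 difference was 0.27 in CD41+ against VEGF-R2+ cells (90% interval -0.69 to 1.22), 0.60 in CD144+ cells of day 3.5 against VEGF-R2+ cells (-0.35 to 1.56) and -0.29 in CD144+ cells of day 6.5 against day 3.5 (-1.24 to 0.66). These intervals still allow changes of more than 2-fold. For Hoxb2 the spread was smaller and the differences were -0.32 (-0.71 to 0.07), -0.56 (-0.95 to -0.17) and 0.06 (-0.33 to 0.45) in the same order of comparisons. For Hoxb5 they were 1.22 (0.29 to 2.16), 0.83 (-0.10 to 1.76) and -0.28 (-1.21 to 0.65). The adjusted p of the first was 0.182. CD144+ against CD41+ cells of day 3.5, a comparison added after the values were seen, gave 0 called Hox genes where 6.06% of all probe sets were called higher and 3.72% lower. Without the first CD41+ array 2 genes were called, Hoxa10 and Hoxd3, and neither was above the odorant receptor level in these populations. Hoxb4 differed by 0.34 (90% interval -0.62 to 1.29) between CD144+ and CD41+ cells, and Hoxb1 by 0.07 (-0.51 to 0.64). All 8 pluripotency markers were higher in CD144+ than in CD41+ cells.

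In the negative populations, called differences between days concerned Hoxb1 and Hoxb2. From day 2.5 to 3.5 the gate changed as well, so that day and gate cannot be told apart. In CD144- cells of day 3.5 against VEGF-R2- cells of day 2.5, 2 Hox genes were higher and 0 lower, where 3.9% of all probe sets were called higher. Hoxb2 had 359 and 359 in CD144- cells against 149 and 122 in VEGF-R2- cells, a log2 difference of 1.37 (standard error 0.22, adjusted p = 0.000778). Hoxb1 had 320.1 and 287 in CD144- cells against 101 and 133 in VEGF-R2- cells, a log2 difference of 1.35 (standard error 0.33, adjusted p = 0.0168). The call of Hoxb1 was lost on leaving out any 1 of the 4 arrays (adjusted p of 0.065 to 0.203), so that 1 gene then remained called.

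In CD41- cells of day 3.5 against VEGF-R2- cells, Hoxb2 moved the other way, and was the 1 Hox gene called, where 1.57% of all probe sets were called higher and 1.89% lower. It had 60.1 and 73.5 in CD41- cells against 149 and 122 in VEGF-R2- cells, at least 1.94-fold lower with a log2 difference of -0.96 (standard error 0.22, adjusted p = 0.0227). Without any 1 of the 4 arrays this call was lost (adjusted p of 0.0711 to 0.281). From day 3.5 to 6.5 in CD144- cells 0 Hox genes were called, and 0.557% of all probe sets were called higher and 0.162% lower. Hoxb1 had 122 and 122 at day 6.5 against 320.1 and 287 at day 3.5 in CD144- cells, a log2 difference of -1.27 (standard error 0.33, adjusted p = 0.116). In a fit of the negative arrays only, which was chosen after the data were seen, the adjusted p of this difference was 0.0364.

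The change from day 2.5 to 3.5 was then compared between positive and negative cells with an interaction term. Here too the sorting marker changed with the day, so that the term cannot tell time from gate. For the CD144 sort, 2 Hox genes differed, both lower, where 3.1% of all probe sets were called higher and 2.2% lower. The change of Hoxb1 was more negative in positive than in negative cells by 3.48 on the log2 scale (difference -3.48, standard error 0.46, adjusted p = 0.000149), and that of Hoxb2 by 1.93 (difference -1.93, standard error 0.32, adjusted p = 0.00106). Both held in every alternative tried. For the CD41 sort, Hoxb1 differed by -1.76 (standard error 0.46, adjusted p = 0.0376), where 2.4% of all probe sets were called lower. This call was lost without the first VEGF-R2+ array (adjusted p = 0.137), either VEGF-R2- array (0.185 and 0.0794), the second CD41+ array (0.0642) or either CD41- array (0.135 and 0.0935). For the change from day 3.5 to 6.5 in CD144 sorted cells 0 Hox genes were called, against 0.364% of all probe sets called higher and 0.426% lower.

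Since both negative populations of day 3.5 came from embryoid bodies of the same day, they were set against each other, a comparison chosen after their values were seen. Their gates differed. The Kdr transcript was called higher in CD144- than in CD41- cells and was not above the odorant receptor level in CD41- cells. The part of the gates in the differences below was not tested. In CD144- against CD41- cells 2 Hox genes were higher and 0 lower, where 1.04% of all probe sets were called higher. Hoxb2 had 359 and 359 in CD144- cells against 60.1 and 73.5 in CD41- cells, at least 5.02-fold higher with a log2 difference of 2.33 (standard error 0.22, adjusted p = 1.15e-05). Hoxb1 had 320.1 and 287 in CD144- cells against 88.2 and 78.5 in CD41- cells, a log2 difference of 1.79 (standard error 0.33, adjusted p = 0.00602), and its call was lost without any 1 of the 4 arrays (adjusted p of 0.0526 to 0.105). Neither Hoxb4 nor Hoxb5 was above the odorant receptor level on both arrays of either population. Early mesoderm markers moved with Hoxb1 and Hoxb2 here, 4 of 7 being higher in CD144- cells with summed signals of 19108 and 18734 against 6788 and 6573 in CD41- cells, and 5 of 8 pluripotency markers were lower. Against VEGF-R2- cells, whose summed early mesoderm signals were 5397 and 4894, 6 of the 7 early mesoderm markers were higher in CD144- cells. The part of these markers in the Hoxb1 and Hoxb2 differences was not tested.

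Probe sets of the same gene were compared where a gene had more than 1, and some of these 11 genes are described here. The second probe set of Hoxb4 was higher in the positive cells of all 4 sorts as well, with log2 differences of 1.94, 3.17, 3.52 and 2.13 in the VEGF-R2, CD41, CD144 day 3.5 and CD144 day 6.5 sorts (adjusted p = 0.0144, 0.000257, 0.000196 and 0.00984). That of Hoxd8 was higher in the VEGF-R2, CD41 and CD144 day 3.5 sorts (1.5, 2.82 and 1.94), but at day 6.5 its difference was 0.64 (adjusted p = 0.442) against 1.78 for the probe set used. The second probe set of Hoxb3 had differences of 1.71 in the CD41 sort (adjusted p = 0.148) and 0.83 in the CD144 sort of day 3.5 (adjusted p = 0.549), so that the calls of Hoxb3 rest on 1 probe set. Hoxa3 has 4 probe sets. The one with the largest variance had a difference of 1.63 in the CD144 sort of day 3.5 and was not called (adjusted p = 0.248 in limma).

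The probe sets of Hoxa5 disagreed. The probe set used was above the odorant receptor level on all 16 arrays and was called in the VEGF-R2 sort only, with the difference in the CD41 sort at 0.69 (adjusted p = 0.0952). The other had 85.5 and 87.6 in CD41+ cells against 7.95 and 5.10 in CD41- cells, with a log2 difference of 2.89 (standard error 0.71, adjusted p = 0.00487), and 88.3 and 84.2 in CD144+ cells of day 6.5 against 27.4 and 5.43 in CD144- cells, with a log2 difference of 2.24 (standard error 0.71, adjusted p = 0.0345). In CD144+ cells of day 3.5 it had 8.27 and 17.8, lower than in CD41+ cells by 2.33 on the log2 scale (adjusted p = 0.0476). This second probe set was not above the odorant receptor level in any population. A second probe set of Hoxc6 (72.9 and 55.5 in CD41+ cells against 6.52 and 3.05 in CD41- cells, adjusted p = 0.0108) was likewise called without being above the level in either population. The values of these probe sets were singled out after they were seen.

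**Figure D4:**
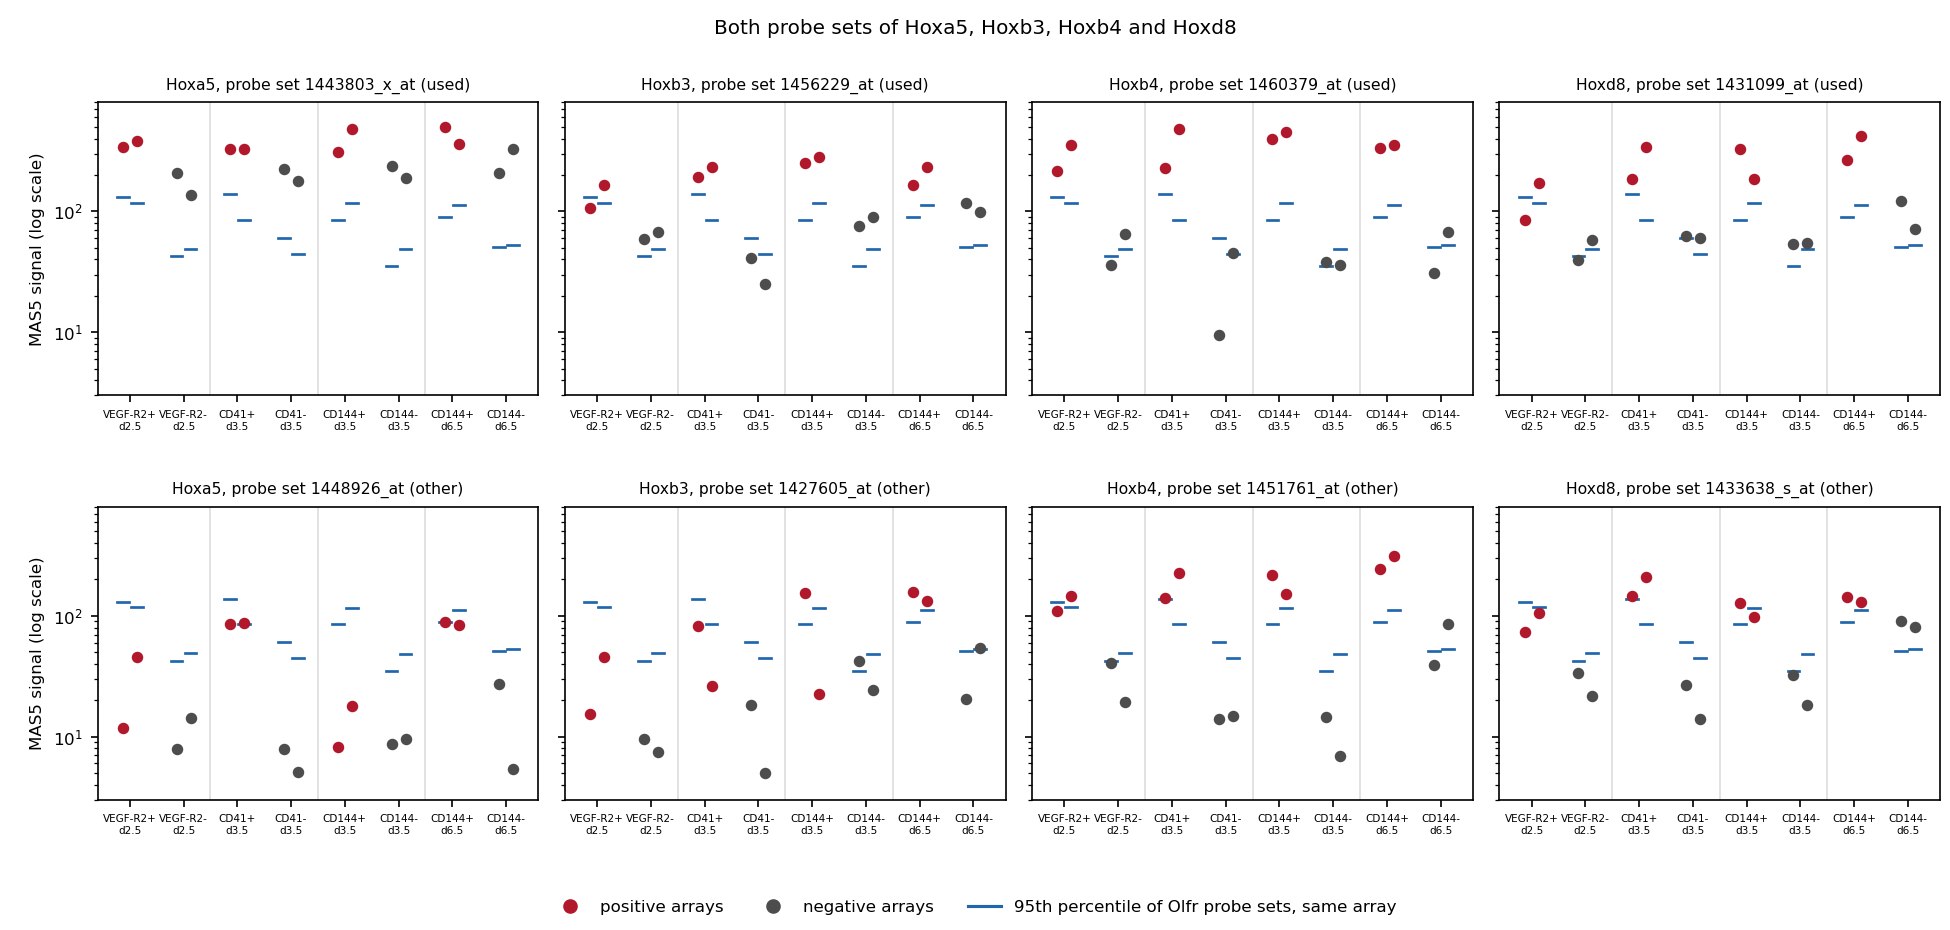
MAS5 signals (log scale) of both probe sets of Hoxa5, Hoxb3, Hoxb4 and Hoxd8 on each array, with the probe set used for the gene in the upper row and the other in the lower row, and bars at the 95th percentile of the odorant receptor probe sets. Both probe sets of Hoxb4 separate positive from negative cells in every sort, whereas the second probe set of Hoxa5 is at 85.5 and 87.6 in CD41+ cells and at 8.27 and 17.8 in CD144+ cells of day 3.5.

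Genes that act with or upstream of Hox genes were examined from fixed lists. For them no lower bounds and no results of leaving out an array are given. In the VEGF-R2, CD41, CD144 day 3.5 and CD144 day 6.5 sorts, 11.1%, 13.5%, 9.49% and 9.41% of all probe sets were called higher. The shares called lower were 13.8%, 15.8%, 10.5% and 10.1%. Of 8 measured TALE cofactors, 3 were higher and 1 lower in VEGF-R2+ cells, 2 higher in CD41+ cells, 2 higher in CD144+ cells of day 3.5 and 3 higher in CD144+ cells of day 6.5. Pbx2, a partner of Hox proteins on DNA, was called higher in all 4 sorts, with log2 differences of 1.09, 1.66, 0.66 and 1.03. The odorant receptor medians were 0.76, 0.89, 0.59 and 0.96 in the same order, so that the differences of the CD144 sorts lay close to them. Meis1, a cofactor needed for hematopoietic stem cells, had signals of 367 and 234 in CD41+ cells against 60.8 and 22.8 in CD41- cells (log2 difference 2.77, standard error 0.53, adjusted p = 0.000652). Meis1 was not above the odorant receptor level in CD41- cells. It had 764 and 511 in CD144+ cells of day 6.5 against 142 and 152 in CD144- cells (log2 difference 2.05, standard error 0.53, adjusted p = 0.0107). Over time in CD144+ cells, Meis1 and Meis2 rose from day 3.5 to 6.5, with log2 differences of 2.28 (adjusted p = 0.0169) and 3.42 (adjusted p = 9.53e-06), while 0 Hox genes were called in that comparison. Meis2 was not above the odorant receptor level in CD144+ cells of day 3.5, so that the size of its difference depends on the offset. Meis2 had 453 and 351 in VEGF-R2+ cells against 105 and 88.1 in VEGF-R2- cells (log2 difference 1.99, adjusted p = 0.000219).

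Among 8 measured caudal genes and other regulators of Hox genes, 2 were higher and 1 lower in VEGF-R2+ cells, 0 were called in the CD41 sort, 2 were lower in CD144+ cells of day 3.5 and 1 was lower in CD144+ cells of day 6.5. Evx1, a homeobox gene next to the Hoxa cluster and also in the early mesoderm list, had signals of 2324 and 1495 in VEGF-R2+ cells against 270.2 and 235 in VEGF-R2- cells. In the CD144 sort of day 3.5 it was reversed, with 233 and 100.03 in CD144+ cells against 901 and 1134 in CD144- cells (log2 difference -2.68, standard error 0.46, adjusted p = 0.000495). Evx1 was not above the odorant receptor level in these CD144+ cells. Hoxb1 had the same order of populations in these comparisons. Cdx2, a caudal gene that activates Hox genes in the posterior embryo, had 7.92 and 78.8 in CD144+ cells of day 3.5 against 303 and 171 in CD144- cells (log2 difference -2.77, standard error 0.73, adjusted p = 0.0125). The CD144+ cells were not above the odorant receptor level for Cdx2 and their duplicates lay far apart, so that the size of this difference is uncertain. Cdx1 and Cdx4 were above the odorant receptor level in no population. Gbx2, a neural boundary gene, had 108 and 66.6 in VEGF-R2+ cells against 822 and 897 in VEGF-R2- cells (log2 difference -3.25, adjusted p = 0.00014). Gbx2 was not above the odorant receptor level in VEGF-R2+ cells.

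Polycomb genes were more often lower than higher in the VEGF-R2 and CD41 sorts, and so were all probe sets. Of 15 Polycomb genes measured, 2 were higher and 5 lower in VEGF-R2+ cells, 3 higher and 7 lower in CD41+ cells, 1 higher and 1 lower in CD144+ cells of day 3.5, and 1 higher and 3 lower in CD144+ cells of day 6.5, against 13.8%, 15.8%, 10.5% and 10.1% of all probe sets called lower. The filter on dim probe sets kept 26950, with a mean signal of at least 100 in some population. Of these, 4951 were higher and 6471 lower in VEGF-R2+ cells, and 5905 higher and 7361 lower in CD41+ cells. Suz12, a subunit of the complex that methylates H3K27, fell in all 4 sorts, with 2122 and 2078 in CD41+ cells against 5041 and 4599 in CD41- cells (log2 difference -1.19, standard error 0.15, adjusted p = 1.54e-05). Its log2 differences in the other sorts were -1.01 in VEGF-R2, -1.01 in CD144 day 3.5 and -0.89 in CD144 day 6.5. Jarid2, which recruits the same complex, had 2386 and 2862 in CD41+ cells against 6839 and 6161 in CD41- cells (log2 difference -1.31, adjusted p = 7.14e-06). The medians of the list were -0.25, -0.54, -0.05 and -0.24 in the 4 sorts. Of 8 Trithorax and H3K27 demethylase genes, 1 was higher and 4 lower in VEGF-R2+ cells, 3 higher and 3 lower in CD41+ cells, 2 higher and 2 lower in CD144+ cells of day 3.5, and 2 higher and 3 lower in CD144+ cells of day 6.5. Kdm6b, which removes H3K27 methylation, had 854 and 1199 in CD41+ cells against 501 and 276 in CD41- cells (log2 difference 1.43, adjusted p = 0.000632).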

How the data were processed

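RNA of 16 samples was measured on Affymetrix mouse arrays. The intensity values that the authors deposited are MAS5 signals on a linear scale, which they scaled on each array to a mean of 500 after trimming 2% at both ends; no software version is given in the sources used here. dChip, with which the study drew up its lists, plays no part here. Because MAS5 subtracts mismatch signal, low values are noisy, and log2(signal + 6) was therefore used, with 6 near the 10th percentile of all values. After 64 control probe sets were removed, 45037 probe sets were fitted together over all 16 arrays with limma 3.58.1 in R 4.3.3 (lmFit, and eBayes with a trend), with p-values adjusted by Benjamini-Hochberg and a threshold of 0.05. With 2 arrays per population the spread is pooled over the populations, so p-values measure the spread between duplicate arrays. Duplicates of positive populations correlated less than those of negative ones, which a pooled spread does not take into account. In a limma fit of positive arrays only, Hoxb9 in CD41+ (adjusted p = 0.209) and Hoxd3 in CD144+ (adjusted p = 0.172) against VEGF-R2+ cells were not called, while Hoxb1 was still called in both.

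Per comparison, statistics are printed for up to 6 called members with the largest differences, and signals also for the members with the highest mean and for Hoxb4. Members and gene lists were chosen with earlier results of these data known. Simulated arrays with seeded changes were used to check the fit. Alternatives were quantile normalization, other offsets, a filter on dim probe sets, other probe sets per gene, fits of the compared groups only, a robust prior, a replicate block, a 90% bound beyond a fold of 2, leaving out each array and, chosen after the data were seen, fits of only positive or only negative arrays and a count of only the members above the odorant receptor level. Probe set names come from the platform annotation in GEO. Plots were made in Python 3.11.15 (matplotlib 3.10.9).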

Additional observations from a re-analysis of the deposited data

Results flagged for a closer look

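Results in which positive and negative cells differed in their change from day 2.5 to 3.5, by an interaction term in limma, were 3. The sorting marker changed between these days as well. Hoxb1 differed by -3.48 on the log2 scale between positive and negative cells in the change to day 3.5 of the CD144 sort (adjusted p = 0.000149). Hoxb2 differed by -1.93 in the same sort (adjusted p = 0.00106). Hoxb1 differed by -1.76 in the CD41 sort (adjusted p = 0.0376), a call that leaving out any of 6 of the 8 arrays ended.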

How the results depend on the processing

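Of 34 called differences named by rule, recomputed under alternatives, 386 of 459 values kept direction and call, 73 kept the direction and lost the call, and 0 reversed; 16 of the 34 held throughout. Where the 90% interval had to lie beyond a fold of 2, the called Hox genes numbered 5 in the VEGF-R2, 4 in the CD144 day 3.5 and 2 in the CD144 day 6.5 sort, and 0 in CD41- or CD144- against VEGF-R2- cells and in the CD41 interaction. In CD41+ against VEGF-R2+ cells 1 gene was called with an offset of 1, the filter on dim probe sets, positive arrays only, the compared groups only, or only members above the odorant receptor level, and so it was in CD144+ against VEGF-R2+ cells, where the robust prior also gave 1. The robust prior and the compared groups only each gave 0 in CD41- against VEGF-R2- cells and in the CD41 interaction. An offset of 32 gave 1 (Hoxa13) in CD144+ cells of day 6.5 against day 3.5, negative arrays only gave 1 (Hoxb1) in CD144- cells of day 6.5 against day 3.5, and the probe set with the largest variance gave 1 (Hoxa5) in CD144+ against CD41+ cells. Leaving out 1 array gave 4 to 8 genes in the VEGF-R2 sort, 6 to 7 in the CD41 sort, 4 to 8 and 3 to 5 in the CD144 sorts of day 3.5 and 6.5, 1 to 2 in CD41+ or CD144+ against VEGF-R2+ cells, 0 to 0 in CD41- and 1 to 1 in CD144- against VEGF-R2- cells, 0 to 1 in the CD41 and 2 to 2 in the CD144 interaction, 1 to 1 in CD144- against CD41- cells and 0 to 2 in CD144+ against CD41+ cells. The causes were not tested.

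Replicate numbers did not pair the arrays: over 28 pairs of populations the correlation of same-numbered deviations was -0.0468 to 0.0472. With the replicate number as a block, 1 gene each was called in CD41+ and in CD144+ against VEGF-R2+ cells, against 2 without it, and 9 against 8 in the CD144 sort of day 3.5.

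No population had both arrays above the odorant receptor level for 20 of 33 genes, and this level was higher on positive arrays, so their differences cannot be sized. Duplicates of positive populations correlated less (Spearman 0.872 to 0.895) than those of negative ones (0.945 to 0.955).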
